A study of Mus musculus with 13 samples.

Results

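In the mouse leukaemia line 961C, 245 of 17696 H3K4me3 peaks overlapped an H3K27me3 peak and held no peak of the fusion protein NP23. They were chosen by overlap of deposited peak lists: at least 1 bp shared with H3K27me3 of 961C, and no base shared with NP23 of 961C. All 3 lists come from libraries of 961C, so the presence of both marks and the absence of NP23 are the choice itself and not a result. Of all 961C H3K4me3 peaks, 383 (2.16%) overlapped H3K27me3, and the 245 without NP23 were 1.38% of the list.

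H3K4me3, the trimethylated lysine 4 of histone H3, marks the promoters of active and poised genes. H3K27me3 is deposited by Polycomb repressive complexes and lies over silenced genes. In embryonic stem cells, promoters of developmental regulators often carry both marks, a state called bivalent, and commonly keep only 1 of them as cells differentiate. Overlapping peaks from a bulk culture do not show that the marks sit on the same nucleosome, allele or cell. Here "bivalent" means only that the listed peaks overlap.

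The study mapped these marks by chromatin immunoprecipitation and sequencing in 4 lines. Line 961C came from an acute myeloid leukaemia (AML) of mouse 961, and 748T and 106A (106A is also labelled M106A) came from pre-T LBL, a T-lineage precursor malignancy, of mice 748 and 106. These 3 are NUP98-PHF23 (NP23) lines of C57BL/6 strain. The control line 7298/2, called SCL-LMO1 here, came from an SCL-LMO1 pre-T LBL of a C57BL/6+C3H hybrid. In that line the oncogenes and the strain differ together and cannot be told apart. All lines were grown without cytokines, and each is 1 culture with 1 library per antibody. NP23 was mapped in 961C alone, with an antibody to the V5 tag, and the labels do not name the promoter that drives the fusion. The 748T and 106A libraries are the only pair of samples in a group. No difference between lines or between classes of peaks was tested, and the exact Clopper-Pearson 95% intervals below cover counting error over peaks only. Coordinates are mm9, and the genes in these regions were not analysed here.

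The lists set what can be seen. The H3K4me3 lists held 17696 peaks in 961C, 17544 in 748T, 16324 in 106A and 17616 in SCL-LMO1. The H3K27me3 lists were less even, with 19469, 8412, 5600 and 4875 peaks in the same order, covering 8.86, 2.24, 1.54 and 1.20 Mb. Read totals are unknown, so a shallow library and an unmarked region cannot be told apart where a list holds no peak.

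The 245 peaks were short and low for H3K4me3. Their median width was 485 bp (quartiles 272 and 1036 bp, range 87 to 3258 bp), against 1063 bp (475 and 1748 bp) for the 16574 H3K4me3 peaks of 961C with neither H3K27me3 nor NP23. Their median maximum height, the deepest pileup of reads within a peak, was 15 reads (quartiles 11 and 24), against 40 reads (16 and 66) for the peaks with neither. Heights were also lower in the classes above 500 bp. Among peaks of 1000 to 1999 bp the medians were 30 reads for 55 bivalent peaks and 59 reads for 5678 with neither, and at 2000 bp or more they were 35.5 reads for 14 and 71 reads for 3022. Under 500 bp the heights were close, with 12 reads for 79 bivalent peaks of 200 to 499 bp and 13 reads for 2914 with neither. These are values of the list used for the choice and are given as a description.

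The bivalent peaks that did hold NP23 were of another size. Their median width, over 138 peaks, was 161 bp, and 99 of them (71.7%) were under 200 bp, whereas 44 of the 245 peaks without NP23 (18.0%) were. The 739 H3K4me3 peaks with NP23 and no H3K27me3 had a median of 221 bp. Of these, 48.2% were under 200 bp and 32.5% were of 2000 bp or more. The second track of the deposited lists also differed. It is a pileup whose meaning is not stated. Its mean exceeded 1 read at 1 of the 245 peaks without NP23 (0.408%, 0.0103 to 2.25), against 35 of the 138 with NP23 (25.4%, 18.4 to 33.5) and 269 of 16571 peaks with neither (1.62%, 1.44 to 1.83). It did so at 71 of the 739 with NP23 and no H3K27me3 (9.61%, 7.58 to 11.96). The median of the second track was 0.0337 reads over the 245 peaks, 0.313 over the 138 and 0.267 over those with neither, and it was 0 at 115 of the 245 (46.9%), 56 of the 138 (40.6%) and 2446 of those with neither (14.8%). These values differed by width. Under 200 bp the median was 0 both for bivalent peaks without NP23 and for those with neither. From 200 to 499 bp it was 0 and 0.212, and from 1000 to 1999 bp 0.173 and 0.289.

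**Figure D1:**
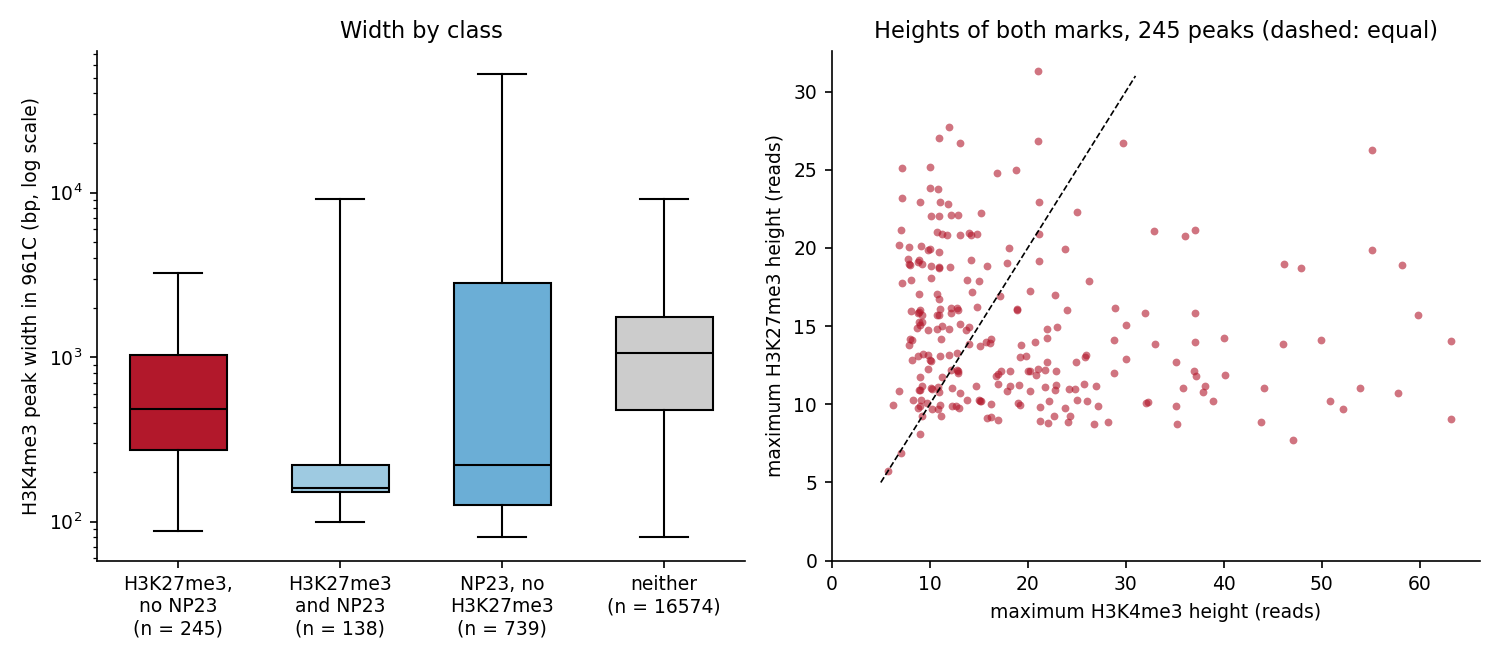
Left, width of 961C H3K4me3 peaks in bp on a log scale, by class: boxes are quartiles, the line the median and whiskers the lowest and highest peak. Right, for each of the 245 peaks with H3K27me3 and no NP23, the maximum H3K4me3 height against the maximum H3K27me3 height in reads, with a small random offset to separate points. The 245 peaks lie between the short peaks that hold both H3K27me3 and NP23 (median 161 bp) and the peaks with neither (median 1063 bp), and H3K27me3 reached at most 31 reads.

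The H3K27me3 peaks that met them were wider than most of that list. The 245 peaks met 259 H3K27me3 peaks, 1.33% of the 19469, and 227 of them (92.7%) met exactly 1. The 259 had a median width of 521 bp (quartiles 272.5 and 980.5 bp) and a median maximum of 14 reads, against 289 bp (153 and 540 bp) and 12 reads for the 19068 H3K27me3 peaks that met no H3K4me3. The remaining 142 met only H3K4me3 peaks that hold NP23 and had a median of 135 bp. A wide peak meets another peak more easily than a short one, and the part of this in the width was not tested. The widest of all H3K27me3 peaks in 961C, 10559 bp long, reached into a 668-bp H3K4me3 peak on chromosome 11 from 118902470 to 118903137 and shared 138 bp with it.

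The 2 marks overlapped to very different extents. The median number of shared bases was 195 (quartiles 109 and 335, range 4 to 1899), or 47.8% of the H3K4me3 peak. In 46 cases (18.8%) the H3K4me3 peak lay wholly inside an H3K27me3 peak. These were short and low, with a median of 193 bp and 10 reads of H3K4me3, under H3K27me3 peaks of median 1131.5 bp and 19 reads. In 60 further cases (24.5%) an H3K27me3 peak lay wholly inside an H3K4me3 peak of median 999 bp and 23 reads, with H3K27me3 of median 244.5 bp and 11 reads. The other 139 (56.7%) overlapped at an edge. A peak that lies inside another is the shorter by definition, so the width contrasts of the 46 and the 60 are set by this sorting. The mark with the higher pileup was H3K27me3 at 108 peaks and H3K4me3 at 125, and the 2 were equal at 12. Those pileups come from separate libraries of unknown depth, so the order at a single peak is not a ratio of the marks.

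The rule has a threshold of 1 shared base. Just inside it lay peaks sharing 4, 13, 18, 21 and 22 bp, and 15 of the 245 shared under 50 bp. Just outside lay H3K4me3 peaks without NP23 at 2, 9, 9, 14 and 15 bp from the nearest H3K27me3 peak, and 169 were within 500 bp of one.

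H3K27me3 often extended past the H3K4me3 peaks, though at 60 of the 245 an H3K27me3 peak lay wholly inside the H3K4me3 peak. The H3K27me3 list of 961C chose the 245 peaks and set the others apart, so its values here are a description only. It covered the centre of 124 of the 245 peaks (50.6%), 88 (35.9%) at 1 kb to the left of the centre and 83 (33.9%) at 1 kb to the right, and still 20 (8.16%) and 23 (9.39%) at 5 kb. H3K4me3, whose peaks here had a median width of 485 bp, covered 33 (13.5%) and 31 (12.7%) at 1 kb. Further H3K27me3 peaks, beyond those that overlap, lay within 5 kb of 193 of the 245 (78.8%), and any H3K27me3 peak lay within 5 kb of 932 of the 16574 peaks with neither (5.62%). The median gap to the nearest NP23 peak was 735178 bp over the 243 peaks on sequences that hold NP23, against 713169 bp over 16551 peaks with neither. A gap under 10 kb was found at 6 of the 245 (2.45%) and 340 of those with neither (2.05%), which were also chosen to lack NP23.

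**Figure D2:**
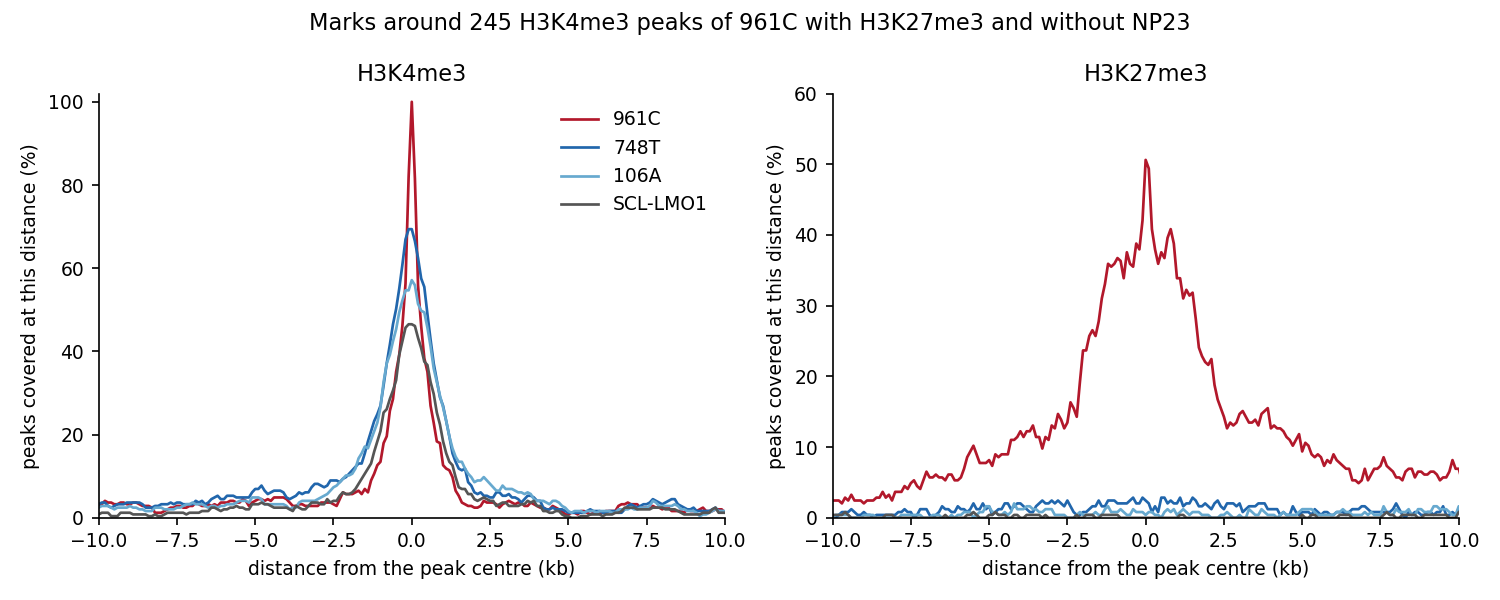
Share of the 245 peaks (%) covered by a listed peak of H3K4me3 (left) or H3K27me3 (right) at each distance in kb from the centre of the 961C H3K4me3 peak, 1 line per cell line. The centre is covered by H3K4me3 in 961C by construction, in 69.4% of cases in 748T, 57.1% in 106A and 46.5% in SCL-LMO1. H3K27me3 covers 50.6% of centres in 961C and at most 2.45% in another line.

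The state of the same positions in the other lines was not used by the rule. In 748T, 167 of the 245 peaks (68.2%, 61.9 to 74.0) carried H3K4me3 alone, 9 (3.67%, 1.69 to 6.86) both marks, 3 (1.22%) H3K27me3 alone and 66 (26.9%) none. In 106A, 137 (55.9%, 49.5 to 62.2) carried H3K4me3 alone, 3 (1.22%, 0.253 to 3.54) both, 2 (0.816%) H3K27me3 alone and 103 (42.0%) none. In SCL-LMO1, 120 (49.0%, 42.6 to 55.4) carried H3K4me3 alone, 0 either of the states with H3K27me3 (upper bound 1.49%), and 125 (51.0%) none. Outside 961C nearly all positions had H3K4me3 without H3K27me3 or no listed peak. This was also so for all 961C H3K4me3 peaks. Of these, 70.2% carried H3K4me3 alone and 29.2% none in 748T. The shares were 66.75% and 32.9% in 106A, and 68.55% and 31.3% in SCL-LMO1. At the 245 peaks, counting H3K4me3 with or without the second mark gave 64.5% ± 10.4 over the 2 NP23 pre-T lines (SD, n = 2). It gave 49.0% in the single SCL-LMO1 library.

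Against all 961C H3K4me3 peaks, the 3 lines fell in different places. H3K4me3 of 748T met 176 of the 245 (71.8%, 65.8 to 77.4), against 70.6% of all 17696. H3K4me3 of 106A met 140 (57.1%, 50.7 to 63.4), against 66.8%. H3K4me3 of SCL-LMO1 met 120 (49.0%), against 68.6%. The value for 748T lay near that of all peaks, and the intervals for 106A and SCL-LMO1 lay below it. The SCL-LMO1 and 748T lists are of nearly equal length, with 17616 and 17544 peaks. Read depth is unknown, and the part of list length or depth in these shares was not tested.

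**Figure D3:**
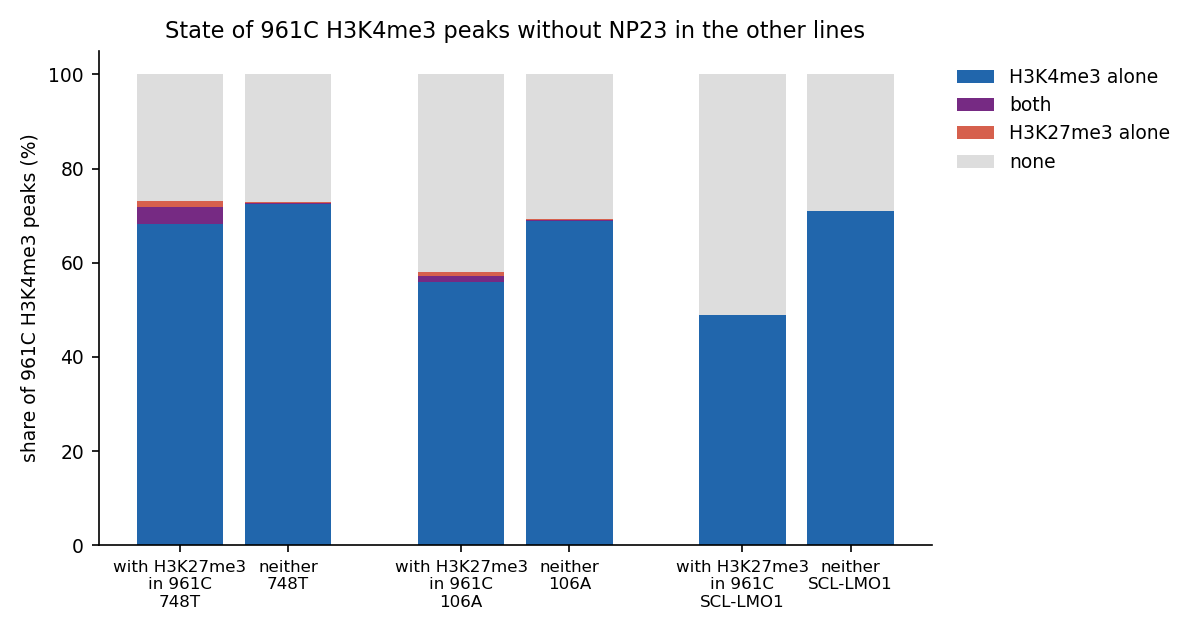
Share (%) of 961C H3K4me3 peaks without NP23 in each state in 748T, 106A and SCL-LMO1. In each pair the left bar is the 245 peaks with H3K27me3 in 961C and the right bar the 16574 with neither H3K27me3 nor NP23. The grey part, no listed peak, is 26.9%, 42.0% and 51.0% of the left bars and 27.1%, 30.8% and 28.9% of the right bars.

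The comparison with the peaks that hold neither differed by width. Short bivalent peaks were met by H3K4me3 of the pre-T fusion lines more often than short peaks with neither. Under 200 bp the shares were 56.8% (41.0 to 71.7) of 44 bivalent peaks and 31.4% (29.0 to 33.9) of 1432 with neither in 748T, and 22 of 44 (34.6 to 65.4%) and 29.6% (27.3 to 32.1) in 106A. In SCL-LMO1 they were 38.6% (24.4 to 54.5) and 31.4% (29.0 to 33.8), which overlap within counting error. From 200 to 499 bp, 748T met 68.4% (56.9 to 78.4) of 79 bivalent peaks and 47.5% (45.6 to 49.3) of those with neither, and SCL-LMO1 met 41.8% (30.8 to 53.4) and 46.1% (44.3 to 47.9).

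Wider bivalent peaks were met less often than wide peaks with neither in 106A and SCL-LMO1. From 1000 to 1999 bp, SCL-LMO1 met 58.2% (44.1 to 71.4) of 55 bivalent peaks and 86.8% (85.9 to 87.6) of 5678 with neither. In 106A the shares were 61.8% (47.7 to 74.6) and 84.9% (84.0 to 85.9), and in 748T, where the intervals overlapped, 81.8% (69.1 to 90.9) and 88.7% (87.9 to 89.5). At 2000 bp or more, 13 of 14 bivalent peaks were met in 748T, 11 in 106A and 11 in SCL-LMO1, too few to set beside the 92.5%, 89.9% and 90.7% of the 3022 with neither.

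**Figure D4:**
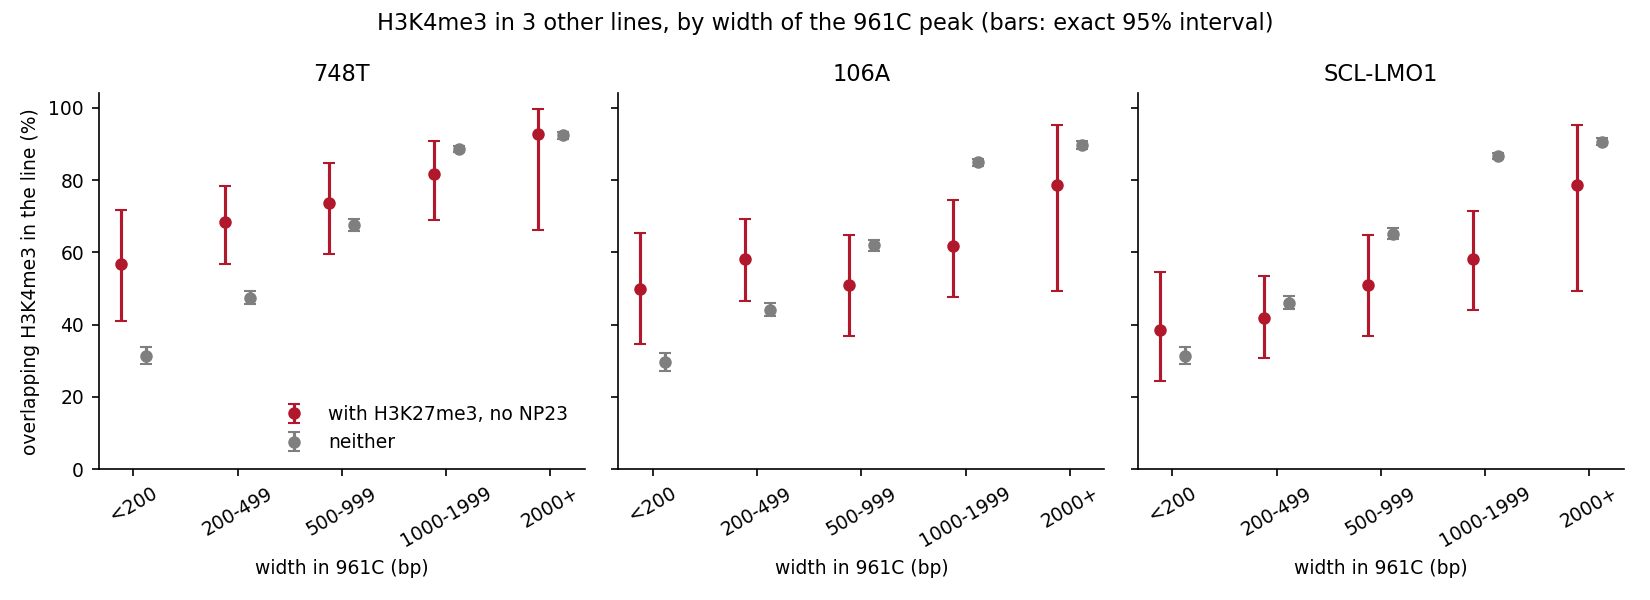
Share (%) of 961C H3K4me3 peaks that overlap H3K4me3 of 748T, 106A or SCL-LMO1, by width of the 961C peak in bp. Dark red, peaks with H3K27me3 and no NP23; grey, peaks with neither; bars, exact 95% intervals. Dark red lies above grey under 500 bp in 748T and 106A, and below it from 1000 to 1999 bp in all 3 lines.

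Where another line did have H3K4me3, it covered the whole 961C peak at 124 of the 176 positions in 748T, 110 of 140 in 106A and 73 of 120 in SCL-LMO1. The overlapping peaks had median widths of 1478.5 bp in 748T, 1809.5 bp in 106A and 1685 bp in SCL-LMO1, close to the 1402, 1568 and 1528 bp at the peaks with neither. The median percentile of their heights within their own lists was 52.7 in 748T, 60.3 in 106A and 60.7 in SCL-LMO1. In 961C the median percentile of the 245 peaks was 23.9. The 961C value covers all 245 positions. Those of the other lines cover only the 176, 140 and 120 positions that they met, each by its tallest overlapping peak. The 245 were thus low within the 961C list, and the positions met were near or above the middle of the other lists. For peaks with neither, the medians were 66.2 in 748T, 65.7 in 106A, 68.3 in SCL-LMO1 and 51.3 in 961C. The part of peak width in being met was not tested.

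Across the 3 lines together, 104 of the 245 peaks (42.4%, 36.2 to 48.9) had H3K4me3 in all and 60 (24.5%, 19.2 to 30.4) in none. Of all 961C H3K4me3 peaks, 25.1% had it in none. Of those with neither, 64.1% (63.3 to 64.8) had it in all 3 lines. H3K4me3 in 748T alone was seen at 32 (13.1%, 9.11 to 17.9) of the 245, against 2.65% (2.41 to 2.91) of those with neither, and in 748T and 106A without SCL-LMO1 at 28 (11.4%, 7.73 to 16.1), against 2.53% (2.30 to 2.79). H3K4me3 in SCL-LMO1 alone was seen at 1 of the 245, against 2.11% (1.898 to 2.34) of those with neither. No peak of either mark in any other line was listed at 56 of the 245 (22.9%). That share was not computed for other 961C H3K4me3 peaks. The nearest measure, H3K4me3 in none of the 3 lines, was 25.1% of all and 22.8% of those with neither.

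H3K4me3 peaks lying close to H3K27me3 without touching it had the same order of lines. Of the 169 without NP23 within 500 bp of an H3K27me3 peak, with a median width of 503 bp, 78.7% (71.7 to 84.6) met H3K4me3 in 748T, 63.9% (56.2 to 71.1) in 106A and 49.1% (41.4 to 56.9) in SCL-LMO1. The shares over all 961C H3K4me3 peaks were 70.6%, 66.8% and 68.6% in the same order. The 169 ranked the lines as the 245 did, but the sets are not separate. Some of the 169 lie beside peaks of the 245, so a wide peak of another line can meet both. On chromosome 6, the peak from 119798279 to 119798654 lies 178 bp from that from 119797816 to 119798100.

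H3K27me3 of the other lines was rare at the 245 peaks. In 748T it met 12 (4.90%, 2.56 to 8.40), against 0.537% of all 961C H3K4me3 peaks. In 106A it met 5 (2.04%, 0.666 to 4.70), against 0.311%. In SCL-LMO1 it met 0, against 0.113%, or 20 peaks, which lies under the upper bound of 1.49% that a count of 0 in 245 leaves. In any of the 3 lines it met 16 of the 245 (6.53%, 3.78 to 10.4) and 137 of the 16574 with neither (0.827%, 0.694 to 0.976). Within 5 kb, H3K27me3 of 748T lay near 62 of the 245 (25.3%, 20.0 to 31.2) and 5.65% (5.31 to 6.02) of those with neither, and H3K27me3 of 106A near 25 (10.2%, 6.71 to 14.7) and 1.92% (1.72 to 2.14). In SCL-LMO1 the shares were 2.86% (1.16 to 5.80) and 1.05% (0.900 to 1.22), which overlap in part. Within 10 kb they were 7.35% (4.41 to 11.4) and 2.365% (2.14 to 2.61) in SCL-LMO1, and the intervals did not overlap.

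Both marks of another line were seen at 9 positions in 748T and 3 in 106A. Each mark met the 961C peak by at least 1 bp, and the 2 need not overlap each other in that line. Over all 961C H3K4me3 peaks the shares with both marks were 0.322% in 748T, 0.0961% in 106A and 0.00565% in SCL-LMO1. Overlap of the 2 lists within a line was itself uncommon outside 961C. It was found at 383 H3K4me3 peaks in 961C, 138 in 748T, 24 in 106A and 0 in SCL-LMO1, and H3K27me3 covered 8.86, 2.24, 1.54 and 1.20 Mb in those lines. Of the 138 in 748T, 12 met one of the 245 peaks, as did 3 of the 24 in 106A. The part of H3K27me3 list size in these counts was not tested.

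Heights are reads of each library, not scaled to its depth, and are not comparable between lines. The widest position with both marks in another line was on chromosome 12 from 41171554 to 41173641 (2088 bp). There H3K4me3 reached 58 reads in 961C, 109 in 748T, 140 in 106A and 123 in SCL-LMO1, and H3K27me3 reached 11 reads in 961C and 14 in 748T, covering 4.84% of the 961C peak in 748T. On chromosome 9 from 55174182 to 55174541, H3K4me3 reached 19 reads in 961C and 35 in 748T, and H3K27me3 of 748T met the peak with 14 reads. A neighbouring peak 328 bp away, from 55174870 to 55175325, carried both marks in 106A, with 99 reads of H3K4me3 and 9 of H3K27me3. SCL-LMO1 had neither mark at these neighbours.

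Further positions with both marks were on chromosome 4. From 131393237 to 131393529 H3K27me3 of 748T covered 88.4%, where H3K4me3 reached 12 reads in 961C, 12 in 748T and 113 in 106A. From 148680746 to 148681230 it covered 67.4%, where H3K4me3 reached 22 reads in 961C, 70 in 748T and 92 in 106A. In 106A both marks met on chromosome 4 from 3864524 to 3865540, with 8 reads of H3K27me3, and on chromosome 3 from 129672368 to 129672999, with 14. At both, all 4 lines had H3K4me3. H3K27me3 of 748T also covered 36.1% of the peak on chromosome 17 from 24940681 to 24941690 and 19.7% of that on chromosome 11 from 78959401 to 78960188, both with H3K4me3 of 748T.

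The largest overlaps of the 2 marks in 961C fell in regions of differing state elsewhere. The most bases, 1899, were shared on chromosome 5 from 34338433 to 34341153 (2721 bp), with 33 reads of H3K4me3 and 21 of H3K27me3. There 748T had H3K4me3 over 51.3% of the peak with 76 reads, and 106A and SCL-LMO1 had neither mark. The next, 1412 bp on chromosome 8 from 124806579 to 124809076, was covered by H3K4me3 in all: 15 reads in 961C, 100 in 748T, 129 in 106A and 87 in SCL-LMO1. All 3 other lines also had H3K4me3 at the 1092 bp on chromosome 11 from 75006925 to 75009400, 1057 bp on chromosome 6 from 99471112 to 99472580 and 786 bp on chromosome 8 from 80041296 to 80042441. The 1200 and 1155 bp shared on chromosome 6 from 52193427 to 52194626 and from 52194803 to 52196458 belong to a run of 6 peaks, and met H3K4me3 of 748T only. Neither mark of any other line met the 991 bp on chromosome 1 from 92894872 to 92896318 or the 729 bp on chromosome 7 from 147135955 to 147136878. The 827 bp on chromosome 12 from 74145318 to 74148009 met H3K4me3 of 748T only, over 98.96% of the peak.

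The widest of the 245 peaks shared few bases with H3K27me3 in several cases. On chromosome 17 from 46166410 to 46169667 (3258 bp) H3K27me3 shared 373 bp, and on chromosome 2 from 56966876 to 56970018 (3143 bp) it shared 76 bp. On chromosome 8 from 107870257 to 107873032 it shared 169 bp and H3K4me3 reached 63 reads. H3K4me3 was present in all 3 other lines at each. The same height of 63 reads, the highest of the 245, was reached on chromosome 7 from 80884950 to 80886475, where no other line had a peak of either mark. Further wide peaks lay on chromosome 4 from 48056262 to 48058934 and chromosome 2 from 103405612 to 103408103, sharing 612 and 126 bp. Of the 10 widest, 7 had it in all 3 lines, 2 in 748T alone, and 1, on chromosome 7 from 140313338 to 140316109, in none.

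The tallest H3K27me3 was found at 6 positions, the last 4 of them tied. H3K27me3 reached 31 reads on chromosome 12 from 113917365 to 113917740, 28 on chromosome 5 from 118622374 to 118622624, and 27 on chromosome 6 from 30123339 to 30124814, chromosome 3 from 98231637 to 98232526, chromosome 1 from 89162069 to 89162444 and chromosome 11 from 95007199 to 95007449. In 3 of the 6 no other line had a peak of either mark. The chromosome 12 position had H3K4me3 in 748T (59 reads) and 106A (87 reads), and the chromosome 6 and 11 positions had it in 748T (22 and 32 reads). None of the 6 had H3K4me3 in SCL-LMO1.

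Of the 245 peaks, 43 lay in 18 runs with gaps of at most 10 kb. The longest run held 6 peaks on chromosome 6 from 52189277 to 52199706. It lies beside an H3K4me3 domain of 29131 bp in 961C (52156421 to 52185551) that meets 4 NP23 peaks, the last of which ends at 52185869, 3407 bp before the first of the 6. Over the 10430 bp of the run, H3K4me3 covered 53.4% and H3K27me3 63.5% in 961C, and NP23 covered 0. A seventh H3K4me3 peak within the span, of 126 bp, met no H3K27me3. H3K4me3 of the 6 was low, with maxima of 16, 14, 13, 18, 9 and 10 reads, against 103 reads in the bound domain. H3K27me3 there reached 21 reads, and further H3K27me3 peaks followed to the right, among them 1 of 39 reads from 52213679 to 52217019. The 6 peaks thus lay between an H3K4me3 domain with NP23 on the left and a stretch of H3K27me3 on the right.

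The other lines differed over this run. In 748T, H3K4me3 covered 81.4% of it in 2 peaks of 120 and 133 reads and met all 6 positions, with no H3K27me3. In 106A a single H3K4me3 peak of 118 reads covered 14.6% and met 1 position. In SCL-LMO1 a 346-bp peak of 31 reads covered 2.94% and met 1, and the bound domain to the left held no peak. No H3K27me3 of these 3 lines fell in the run, though 748T had 3 H3K27me3 peaks and SCL-LMO1 had 1 between 52213176 and 52218501.

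**Figure D5:**
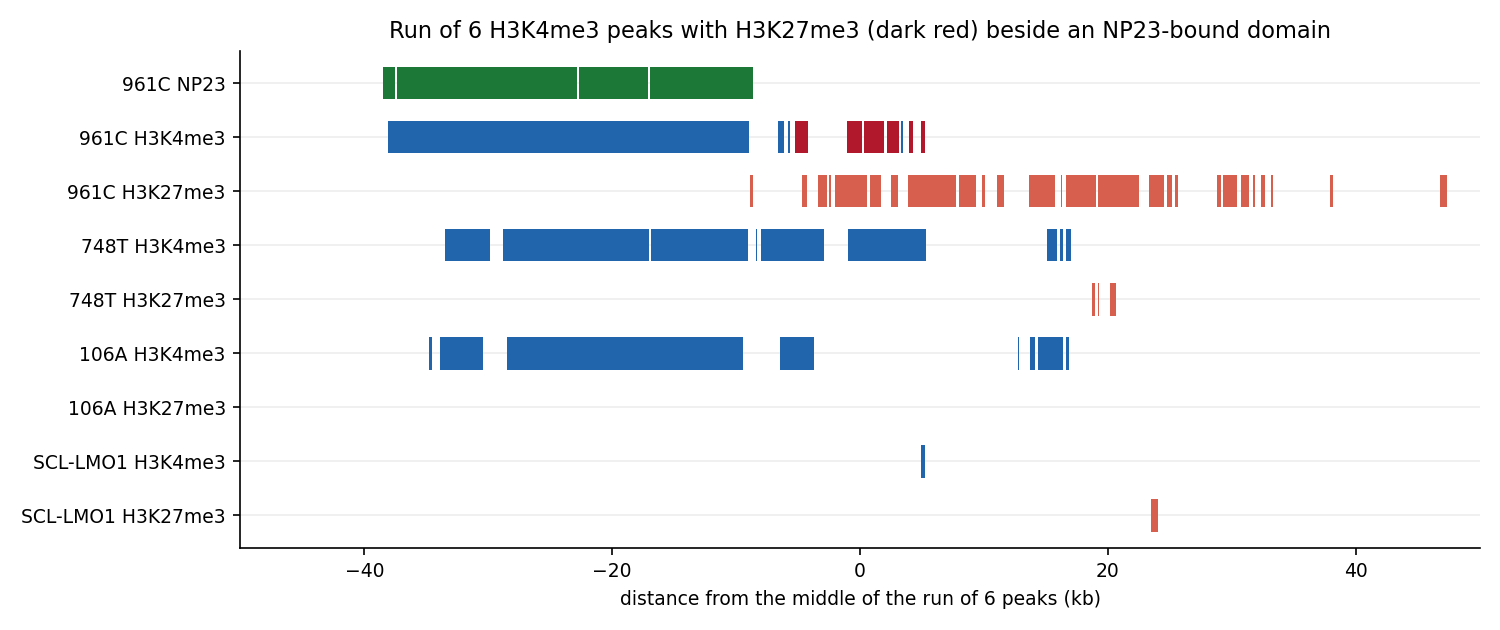
Listed peaks of each library within 50 kb of the middle of the run of 6 H3K4me3 peaks with H3K27me3 on chromosome 6, as distance in kb. Dark red, the 6 peaks; blue, other H3K4me3 peaks; green, NP23; orange, H3K27me3. The 6 peaks start 3407 bp past the end of NP23 and lie among H3K27me3 peaks of 961C, while 748T has 2 H3K4me3 peaks over the same stretch.

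Runs elsewhere had other states. On chromosome 18, 4 peaks within 2035 bp (83079116 to 83081150) lay over H3K27me3 of up to 20 reads and met neither mark of any other line. On chromosome 13, 3 peaks within 5155 bp (63664791 to 63669945) met H3K4me3 in all 3 lines, with H3K27me3 of at most 9 reads. On chromosome 17, both peaks from 71901043 to 71903412 met H3K27me3 of 748T. In all, 15 runs had 2 peaks each. With each run counted as 1 position, 220 positions were left, and H3K4me3 was found at 70.9% in 748T, 58.6% in 106A and 50.5% in SCL-LMO1.

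Another H3K4me3 peak lay within 1 kb of 95 of the 245 (38.8%, 32.6 to 45.2) and of 37.9% (37.2 to 38.7) of those with neither. Among peaks under 500 bp it did so at 43.1% (34.2 to 52.3) of 123 bivalent peaks and 52.3% (50.8 to 53.8) of 4346 with neither. Short bivalent peaks without such a neighbour were met by H3K4me3 of 748T in 40 of 70 cases (57.1%, 44.7 to 68.9), against 27.3% (25.4 to 29.2) of 2073 short ones with neither. The corresponding shares were 52.9% (40.6 to 64.9) and 21.9% (20.2 to 23.8) in 106A, and 40.0% (28.5 to 52.4) and 27.1% (25.2 to 29.0) in SCL-LMO1. The intervals did not overlap in 748T or 106A and overlapped slightly in SCL-LMO1. Among short peaks with such a neighbour, the bivalent peaks ranked the lines in the same order, but their contrast with those with neither differed by line. H3K4me3 of 748T met 73.6% (59.7 to 84.7) of 53 bivalent ones and 55.8% (53.7 to 57.8) of 2273 with neither. The shares were 58.5% (44.1 to 71.9) and 55.3% (53.2 to 57.3) in 106A, and 41.5% (28.1 to 55.9) and 54.2% (52.1 to 56.2) in SCL-LMO1, where the bivalent share was the lower of the pair and the intervals overlapped.

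Seen from H3K27me3, the 259 peaks at these positions stood apart in their H3K4me3 elsewhere. H3K4me3 of 748T met 68.0% (61.9 to 73.6) of them, against 4.47% (4.18 to 4.78) of the 19068 H3K27me3 peaks without H3K4me3 in 961C. In 106A the shares were 57.9% and 3.46%, and in SCL-LMO1 46.3% and 2.56%. The shares with H3K27me3 in other lines lay closer together. H3K27me3 of 748T met 9.65% (6.34 to 13.9) of the 259 and 7.21% (6.85 to 7.59) of the 19068, and that of 106A met 2.70% (1.09 to 5.49) and 4.38% (4.09 to 4.68), and the intervals overlapped in both lines. The H3K4me3 contrast is set in part by the choice, since one side has H3K4me3 in 961C and the other has none.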

How the data were processed

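Each of the 9 deposited peak lists holds 1 library, with a start, an end and a text field. The tools listed, per the submitters' processing notes, are BWA 0.5.9-r26 and CASAVA 1.9, and the build is mm9. No peak caller or threshold is named there. The text field deposited by the authors gives the mean and maximum signal, a pileup of reads, and those of a second, unexplained track. Heights show no scaling to depth, so heights of different lists are given side by side without comparison. The 4 input samples have no list here.

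Peaks were compared by an overlap of 1 bp, and shares given exact Clopper-Pearson 95% intervals (Python 3.11.15, pandas 2.3.3, scipy 1.17.1). The overlap code was tested on simulated data. Width classes have edges at 200, 500, 1000 and 2000 bp. The peaks and comparisons were chosen with earlier results of these data known. Named were the 10 with most shared bases, 10 widest, 5 with tallest H3K27me3 (6 with ties), and 10 widest with both marks elsewhere. The 5 with the highest second track were named too, and are in the closing section. Runs, the peak meeting the widest H3K27me3 peak and the tied tallest H3K4me3 peak were chosen for naming after their values were seen. No gene table of mm9 was at hand, so gene lists and sequences were not used.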

Additional observations from a re-analysis of the deposited data

How the results depend on the processing

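Shares in other lines, widths and counts were recomputed under 86 combinations of result and setting, and 71 kept close to the reported value: inside the 95% interval of a share or median, inside the SD of a mean, or within 1.5 times the count. Part of the 71 could not or could hardly move. No NP23 within 1 kb left the same 245 peaks. A second track of at most 1 read left 244, and autosomes alone left 243. Leaving out 1 of 2 lines always stays inside the SD of their mean. No paired analysis was possible because no test was made and the labels give no replicate numbers. Keeping only the taller 50% of 961C H3K4me3 peaks left 22 peaks of median 1430 bp. H3K4me3 then met 95.5% in 748T, 72.7% in 106A and 77.3% in SCL-LMO1, and H3K27me3 met 9.09% in 748T and 0% in 106A. The share of other H3K4me3 peaks of that height was not computed. Keeping H3K4me3 peaks of 500 bp or more left 122 of median 1037 bp. Of these, 79.5% met H3K4me3 in 748T, 59.0% in 106A and 57.4% in SCL-LMO1. Among the 12228 peaks of 500 bp or more with neither, the shares were 83.6%, 79.5% and 81.5%. With peaks within 1 kb counted as present, H3K27me3 met 13.1% in 748T and 5.31% in 106A. With at least 50% of the peak covered, these were 2.45% and 0.408%. Under every setting that changed the choice of peaks, the share met by H3K4me3 was highest in 748T, and that of 106A was above that of SCL-LMO1 except with the taller 50% of H3K4me3 peaks. Over the NP23 pre-T lines, leaving out 748T or 106A gave 57.1% to 71.8% for H3K4me3 and 2.04% to 4.90% for H3K27me3. Counting peaks within 10 kb once, chosen after seeing the data, changed no share beyond its interval. Depth is unknown, so the short H3K27me3 lists of the other lines limit what they can show.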

Other observations

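The 245 peaks lay on every autosome. They made up 2.51% (1.58 to 3.78) of the 876 H3K4me3 peaks of chromosome 6 and 0.731% (0.269 to 1.58) of the 821 of chromosome 13, the highest and lowest autosomal shares. Of the 22 on chromosome 6, 6 form 1 run, from 52189277 to 52199706. None of the 544 H3K4me3 peaks of chromosome X was among the 245 (upper bound 0.676%), though the H3K27me3 list held 339 peaks there. On the unplaced sequences, 2 of 9 were.

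The second track was highest on chromosome 15 from 78861323 to 78861712, at 1.15 reads, where H3K4me3 reached 22 reads in 961C, 58 in 748T and 140 in 106A. The next, at 0.961 reads, was chromosome 3 from 88058244 to 88058803, which lay wholly under H3K27me3 of 961C and was covered to 70.7% by H3K27me3 of 106A, with H3K4me3 in no other line. The remaining 3 were on chromosome 6 from 29161763 to 29162191, chromosome 5 from 150481241 to 150481569 and chromosome 19 from 46423120 to 46423481.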
